A study of Mus musculus with 8 samples.

Results

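Genes of the bone morphogenetic protein (BMP) and transforming growth factor beta (TGF-beta) pathways were followed in MB21, a ptch mutant line of mouse medulloblastoma grown as non-adherent cells. DS38 cells had received 10 uM DS-1-38, a benzarone derivative, and DMSO cells the vehicle, each for 5 days, with 4 RNA sequencing libraries a group. Both groups share the line and its ptch mutation, so the comparison is between treatments of 1 line. Nothing in the labels ties the 4 libraries to separate cultures, so p-values measure only the spread between these libraries, which may be technical. Members were chosen by symbol alone, as protein-coding genes named Bmp, Bmpr, Gdf, Tgfb1 to Tgfb3, Tgfbr1 to Tgfbr3, Acvr, Inhb or Smad with their numbers, plus Nog, Chrd, Grem1, Fst and Bambi. This gave 54 genes of 55416 identifiers in the table.

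In this pathway a secreted ligand binds a type 2 receptor kinase, which phosphorylates a type 1 receptor. The type 1 receptor phosphorylates receptor-regulated Smad proteins, Smad1, Smad5 and Smad9 after BMPs and Smad2 and Smad3 after TGF-betas and activins, and these enter the nucleus with the shared partner Smad4. In the developing cerebellum, BMPs oppose the growth that Hedgehog signals drive in granule neuron progenitors, the cells from which Hedgehog-type medulloblastoma arises.

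Library totals ran from 17142397 to 28476019 counts in DS38 and from 18878556 to 25582159 counts in DMSO. Levels are given as CPM, each library's counts scaled to a common total adjusted by edgeR's TMM factors. Where genes are compared with each other they are given as RPKM, which is CPM per kilobase of the gene length in the deposited table. Each gene was tested with edgeR's quasi-likelihood test at a Benjamini-Hochberg adjusted p under 0.05 over all 15133 genes kept by the filter on low counts. Sums over marker lists, here and below, are in CPM of the plain library totals, without TMM factors. The 9 medulloblastoma and granule progenitor markers were all counted and summed to 1843 to 1921 CPM in DS38 and 1640.1 to 1682 CPM in DMSO. Of these markers 5 were higher and 2 lower, a called share of 77.8% against 39.5% of all genes. They moved in both directions, as Atoh1 rose (log2 fold change 0.60, edgeR adjusted p = 9.09e-10) and Gli1 fell (-0.60, edgeR adjusted p = 2.65e-09). Markers of microglia and immune cells summed to at most 0.14 CPM in any library, with Cx3cr1 at 0 counts throughout. In bulk RNA, fewer cells of a type and less RNA per cell cannot be told apart.

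Of the 54 genes, 3 (Bmp7, Gdf1 and Gdf5) had no count in any library, 21 had counts but fell under the filter, and 30 were tested. Among the 30, 8 rose and 4 fell with DS-1-38, so 40.0% changed, against 39.5% of all genes tested. The share of members that changed was therefore near that of all genes. By direction, 26.7% of the tested members rose, against 18.8% of all genes, and 13.3% fell, against 20.7%. The groups did not overlap for 11 of the 30, against 36.1% of all genes. The median log2 fold change was 0.05, against -0.01 over all genes. The changes past 1.5-fold were the rises of Tgfb2, Tgfb3 and Tgfbr2, and 7.56% of all genes changed that much. Scaled by library totals alone, 10 members rose and 3 fell, and 64.3% of all changed genes were rises, against 47.5% with TMM.

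**Figure D1:**
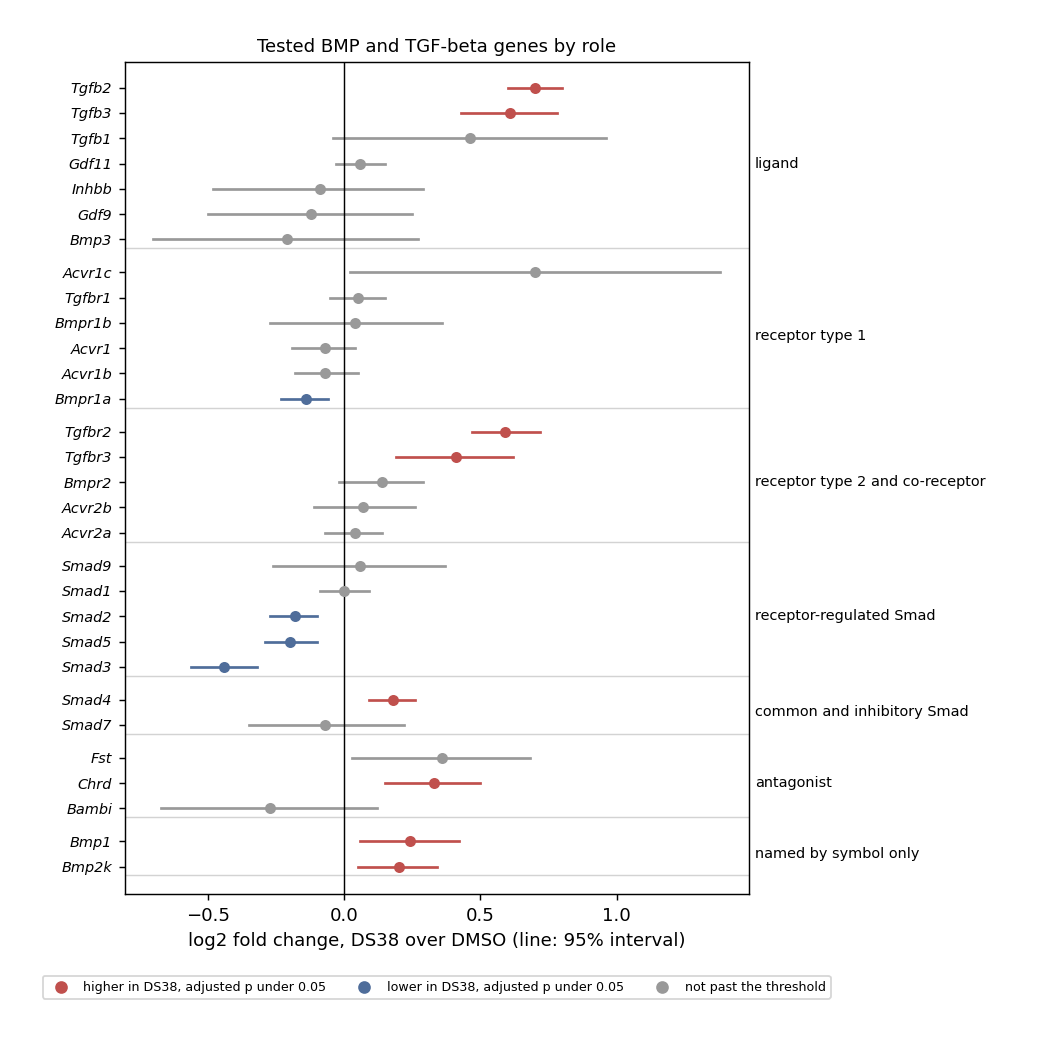
Log2 fold change of DS38 over DMSO for the 30 tested genes, grouped by role, with 95% intervals from the edgeR fit (4 libraries a group). Tgfb2, Tgfb3 and Tgfbr2 lie farthest to the right of those past the threshold, and Smad3 farthest to the left.

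The sequences just upstream of Tgfb2, Tgfbr2 and Smad3 are shown because these are the ligand, the receptor and the Smad with the smallest p-values in their classes. Each is the 250 bases before the start of transcription in RefSeq's table for GRCm38.p6, an earlier build than the GRCm39 named for the counts, read 5′ to 3′ on the gene's minus strand. Capitals mark matches to any of 4 motifs, searched on both strands and found with no overlap between them. The core to which Smad3 and Smad4 bind was searched as CAGAC. A GC-rich site that Smads can also bind was searched as GGCGCC. An E-box, the site of many basic helix-loop-helix proteins, was searched as CACGTG. The TATA box, which places the start of transcription in some promoters, was searched as TATAAA.
Tgfb2, chr1:186705990-186706239: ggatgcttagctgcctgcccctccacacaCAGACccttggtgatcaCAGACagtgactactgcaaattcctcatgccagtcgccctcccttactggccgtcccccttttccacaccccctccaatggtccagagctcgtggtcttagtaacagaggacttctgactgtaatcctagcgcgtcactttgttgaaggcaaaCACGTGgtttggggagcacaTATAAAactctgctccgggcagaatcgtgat
Tgfbr2, chr9:116175364-116175613: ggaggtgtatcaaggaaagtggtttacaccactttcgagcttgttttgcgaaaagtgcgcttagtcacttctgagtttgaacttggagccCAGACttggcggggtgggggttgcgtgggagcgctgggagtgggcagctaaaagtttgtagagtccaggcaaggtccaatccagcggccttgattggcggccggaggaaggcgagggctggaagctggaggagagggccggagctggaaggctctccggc
Smad3, chr9:63757995-63758244: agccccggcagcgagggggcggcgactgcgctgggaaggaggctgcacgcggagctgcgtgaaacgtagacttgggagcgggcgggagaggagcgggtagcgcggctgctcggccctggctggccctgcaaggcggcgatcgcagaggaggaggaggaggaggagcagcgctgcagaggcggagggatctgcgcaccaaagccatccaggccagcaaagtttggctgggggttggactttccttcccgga
The Tgfb2 window held 4 matches, with the Smad core beginning 221 and 204 bases before the start, the E-box at 51 bases and the TATA box at 31 bases. The Tgfbr2 window held 1 match, the Smad core at 160 bases, and the Smad3 window held 0 matches. Of the 32851 RefSeq windows of this length, 42.2% held the Smad core, 9.59% the GC-rich Smad site, 6.02% the E-box and 12.4% the TATA box. These matches describe the letters only.

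Among the ligands, both well expressed TGF-beta genes rose, and the BMP genes were close to silent in both groups. Of the 7 ligands tested, 2 rose and 5 missed the threshold, a called share of 28.6% against 39.5% of all genes. Tgfb2, a TGF-beta with roles in embryonic neurons and glia, had 95.2, 91.2, 91.0 and 84.7 CPM in the 4 DS38 libraries, against 55.6, 51.8, 59.5 and 56.4 CPM in the DMSO libraries. Every DS38 library lay above every DMSO library. The means were 90.5 ± 4.36 CPM in DS38 and 55.8 ± 3.15 CPM in DMSO (SD, n = 4 each), a 1.62-fold rise (log2 fold change 0.70 ± 0.049 SE, edgeR adjusted p = 3.22e-09). Tgfb3, which encodes the related ligand TGF-beta 3, stood at 20.4, 19.9, 16.5 and 17.3 CPM in DS38 and at 12.4, 11.3, 13.4 and 11.8 CPM in DMSO. Its groups did not overlap either, with a 1.52-fold rise (log2 fold change 0.61 ± 0.083 SE, edgeR adjusted p = 1.56e-05). Tgfb1, the TGF-beta of immune and wound settings, was low, at 1.77 ± 0.298 CPM in DS38 and 1.27 ± 0.439 CPM in DMSO (SD, n = 4 each), and its groups overlapped. Its log2 difference of 0.46 had a 95% interval from -0.04 to 0.96 (edgeR adjusted p = 0.133), which covers rises as large as those of Tgfb2 and Tgfb3. Leaving out single libraries moved it between 0.31 without DMSO replicate 2 (edgeR adjusted p = 0.353) and 0.70 without DMSO replicate 4, where it passed (edgeR adjusted p = 0.0278).

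Gdf11, a brake on neurogenesis in several tissues, had the highest level per length of the ligands, at 18.3 ± 0.315 RPKM in DS38 and 17.6 ± 0.826 RPKM in DMSO (SD, n = 4 each). In CPM it stood at 72.6, 74.1, 74.3 and 75.7 in DS38 and at 67.0, 70.5, 74.2 and 73.7 in DMSO. The groups overlapped, and the log2 difference was 0.06 with a 95% interval from -0.03 to 0.15 (edgeR adjusted p = 0.306). With library totals it was 0.12 and passed (edgeR adjusted p = 0.0363). Summed over the 27 ligands, the level was 41.9 ± 1.05 RPKM in DS38 and 33.6 ± 1.40 RPKM in DMSO, and the 3 TGF-betas held 51.2% ± 1.65 of it in DS38 and 40.2% ± 1.61 in DMSO (SD, n = 4 each). The BMP genes (Bmp2 to Bmp8b, Bmp10 and Bmp15), in contrast, summed to 0.277 ± 0.0966 RPKM in DS38 and 0.219 ± 0.0167 RPKM in DMSO, with overlapping groups. Of these 10 genes only Bmp3, which encodes an atypical BMP that opposes the others, passed the filter, at 1.08 ± 0.302 CPM in DS38 and 1.28 ± 0.0749 CPM in DMSO (SD, n = 4 each, edgeR adjusted p = 0.496). Bmp2 had 0 counts in DS38 and 1 in DMSO, and Bmp4 had 2 counts in DS38 and 0 in DMSO, and both are BMPs that can act on granule progenitors. Bmp5, Bmp10 and Bmp15 had at most 3 counts each over all libraries, Bmp8a had 10 counts in DS38 and 2 in DMSO, and Bmp8b had 9 in DS38 and 8 in DMSO. For Bmp7, a count of 0 in the shallowest library allows a level of up to 0.175 CPM. Its 0 counts over all libraries of a group allow up to 0.0342 CPM in DS38 and in DMSO. Such limits cover counting error only. The remaining tested ligands were Gdf9, the oocyte factor, with a log2 difference of -0.12 (edgeR adjusted p = 0.619), and Inhbb, the activin B subunit, with -0.09 (edgeR adjusted p = 0.717). Gdf1 shares all of its annotated exon bases with Cers1, so its count of 0 says nothing of its transcript.

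**Figure D2:**
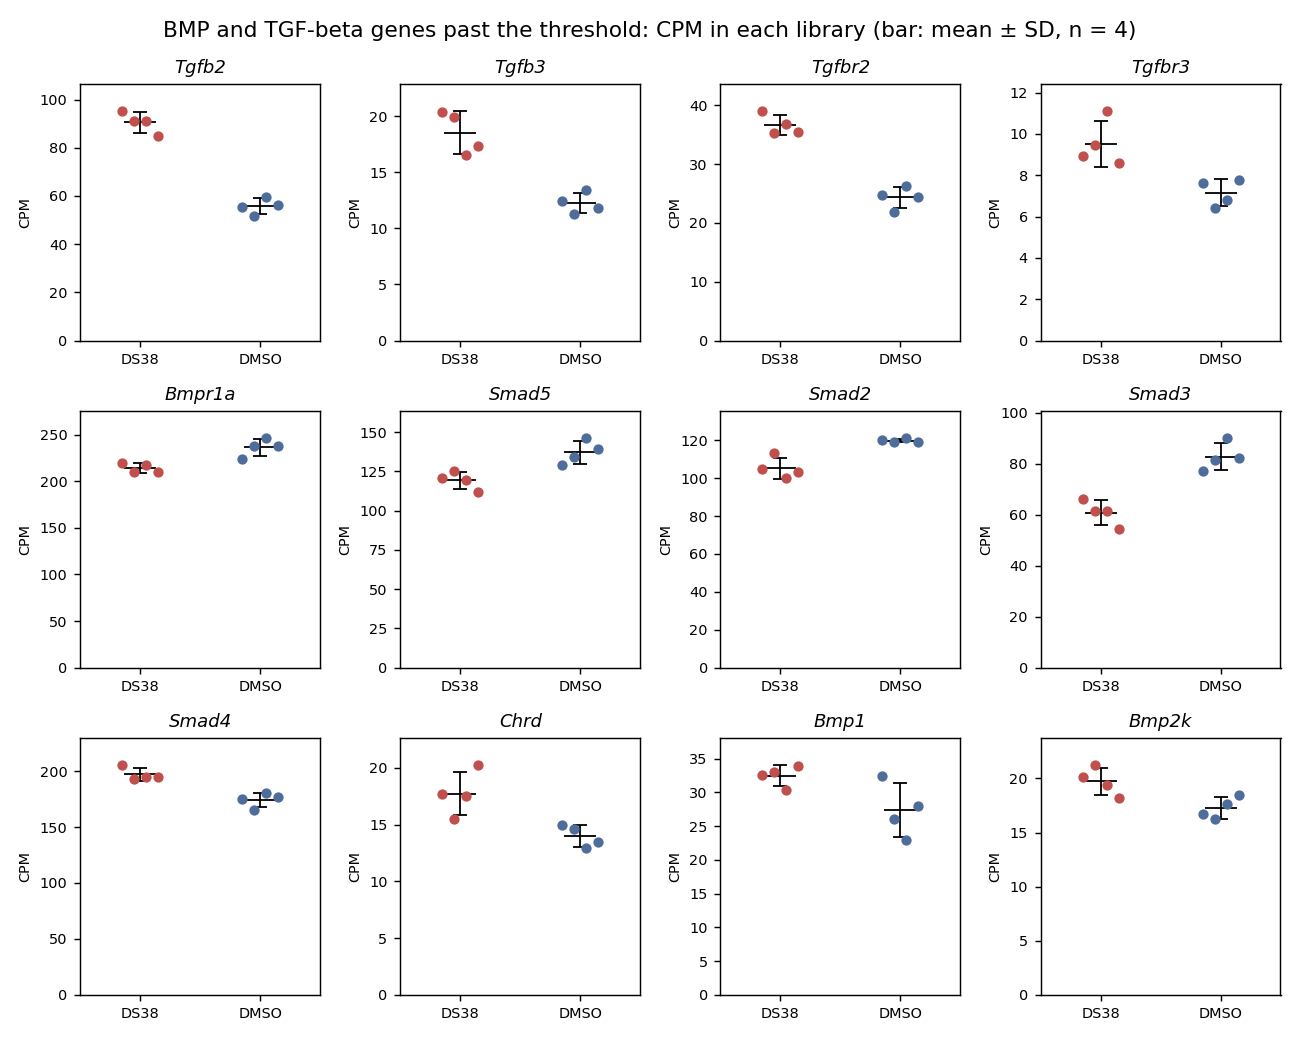
CPM in each library for the 12 genes past the threshold, with the mean and SD of each group (n = 4). The groups are apart for every gene except Bmp1 and Bmp2k, where 1 DMSO library reaches the range of the DS38 libraries.

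The ligands under the filter included Gdf15, a stress cytokine that acts through the receptor Gfral. It had 1, 5, 2 and 1 counts in the DS38 libraries and 23, 21, 8 and 9 counts in the DMSO libraries, or 0.0971 ± 0.0617 CPM and 0.668 ± 0.266 CPM of the plain library totals. All DS38 libraries lay below all DMSO libraries, as they did for 0.551% of the genes that had counts but fell under the filter. Tested without the filter, where 19.7% of genes changed, Gdf15 had a log2 fold change of -2.75 by edgeR's test (adjusted p = 4.71e-07), and it fell in DESeq2 as well (adjusted p = 0.000271). Of the genes under the filter, 0.278% were called lower that way. Gdf15 was singled out because its groups do not overlap, so these p-values are not separate support.

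Bmp6, a BMP best known from iron balance in the liver, had 5, 3, 2 and 3 counts in DS38 and 0, 0, 0 and 1 in DMSO. The ratio of summed CPM was 13, with an exact 95% interval for counting error of 1.96 to 553. Acvrl1, a type 1 receptor gene typical of endothelium, had 3, 3, 1 and 2 counts in DS38 and 0 in each DMSO library, at least 3.0-fold higher when 3 counts over the DMSO group are taken as the floor. Both genes passed in edgeR without the filter (adjusted p = 0.0334 for Bmp6 and 0.0248 for Acvrl1), as did 1.91% of the genes under the filter and 8.99% of all genes in this direction. Both were singled out because their groups do not overlap, so these p-values are not separate support. For both, every DS38 library lay above every DMSO library, as for 3.61% of the genes under the filter. In DESeq2 neither received an adjusted p. Among 4117 genes with 5 to 15 counts over all libraries, 4.52% had every DS38 library above every DMSO library, and genes under the filter held 0.139% of all counts in DS38 and 0.103% in DMSO. The part of this larger share of low counts in DS38 in the Bmp6 and Acvrl1 counts was not tested. Bmp6 also shares 224 exon bases with Txndc5 on the opposite strand, a gene with 21646 counts, and with the strand setting not known the reads cannot be told apart. Per plain library total, the 4 endothelial markers summed to 1.47 to 1.81 CPM in DS38 and 0.782 to 1.75 CPM in DMSO. Most of it was Cdh5 (with TMM, 1.18 ± 0.198 CPM in DS38 and 1.13 ± 0.345 CPM in DMSO; SD, n = 4 each). Of the others, Pecam1 had 37 counts in DS38 and 14 in DMSO, with overlapping groups (0.0522 as edgeR's adjusted p without the filter), Kdr had 1 in DS38 and 0 in DMSO, and Cldn5 had 0. The part of endothelial RNA in the Acvrl1 counts was not tested. Apart from Nog, described below, the other members under the filter had 1 to 41 counts each over all libraries, and they included Inhba, Inhbc, Inhbe, Gdf2, Gdf3, Gdf6, Gdf7, Gdf10, Smad6 and Grem1.

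**Figure D3:**
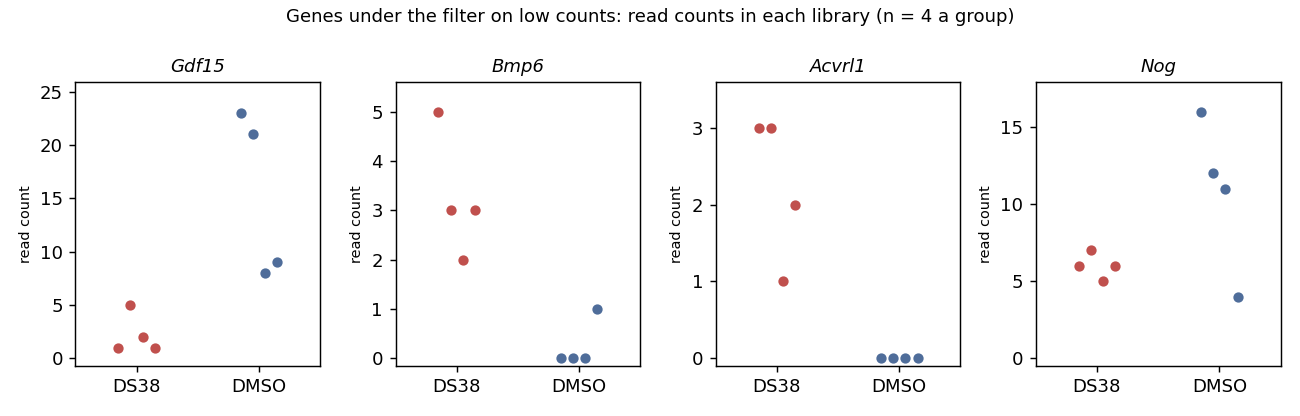
Read counts in each library for Gdf15, Bmp6, Acvrl1 and Nog, all under the filter on low counts. Gdf15 is lower and Bmp6 and Acvrl1 are higher in all 4 DS38 libraries, whereas for Nog 1 DMSO library lies below the DS38 ones.

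Among the receptors, the genes of the TGF-beta type 2 receptor and co-receptor rose, and the best expressed BMP type 1 receptor gene fell slightly. Of 12 receptor genes, 11 were tested, of which 2 rose, 1 fell and 8 missed the threshold, a called share of 27.3% against 39.5% of all genes. Tgfbr2, which encodes the type 2 receptor for TGF-betas, had 39.0, 35.3, 36.9 and 35.4 CPM in DS38 and 24.7, 21.9, 26.3 and 24.4 CPM in DMSO. The groups were well apart, and the rise was 1.51-fold (log2 fold change 0.59 ± 0.060 SE, edgeR adjusted p = 4.65e-07). Tgfbr3, or betaglycan, which presents TGF-beta 2 to Tgfbr2, had 8.92, 9.46, 11.1 and 8.59 CPM in DS38 and 7.62, 6.43, 6.80 and 7.76 CPM in DMSO. Its groups were also apart (0.41 ± 0.103 SE on the log2 scale, adjusted p = 0.00435 in edgeR). Tgfbr1, the type 1 partner of Tgfbr2, stood at 66.8 ± 3.12 CPM in DS38 and 64.4 ± 3.31 CPM in DMSO (SD, n = 4 each), a log2 difference of 0.05 with a 95% interval from -0.05 to 0.15 (edgeR adjusted p = 0.43).

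The ratio of the 2 receptors was compared directly. The mean log2 of Tgfbr2 over Tgfbr1 was -0.86 ± 0.033 in DS38 and -1.41 ± 0.157 in DMSO (SD, n = 4 each), higher in all DS38 libraries than in any DMSO library. The 2-sided exact permutation p was 0.0286, the smallest that 4 against 4 can give, and 0.0572 after adjustment over the 4 pairs compared, which were picked with the values known.

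Bmpr1a was the best expressed receptor gene per length, at 33.7 ± 0.838 RPKM in DS38 and 37.2 ± 1.43 RPKM in DMSO (SD, n = 4 each). It encodes a type 1 receptor for BMPs. It had 219.9, 209.5, 217 and 209.7 CPM in DS38 and 224, 238, 246 and 238 CPM in DMSO. The groups were just apart, with a log2 fold change of -0.14 ± 0.040 SE (edgeR adjusted p = 0.00797), a fall that did not pass under plain library totals (-0.08, adjusted p = 0.114). Bmpr2, the type 2 receptor for BMPs, had 228, 225, 218 and 186 CPM in DS38 and 187, 179, 203 and 213 CPM in DMSO, and DS38 replicate 4 lay among the DMSO libraries. Its log2 difference of 0.14 did not pass (95% interval -0.02 to 0.29, edgeR adjusted p = 0.148), but it did without that library (0.20, adjusted p = 0.00572) and without the filter (0.12, adjusted p = 0.0291). With the trend of fold change on gene length removed, the difference was 0.04 (adjusted p = 0.501).

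The other receptor genes did not pass the test. Acvr1 and Acvr1b, type 1 receptors for BMPs and activins, both had log2 differences of -0.07, with 95% intervals of -0.19 to 0.04 and -0.18 to 0.05. Acvr2a and Acvr2b, type 2 receptors that serve activins and several BMPs, had log2 differences of 0.04 and 0.07, with intervals from -0.07 to 0.14 and from -0.11 to 0.26. Bmpr1b, a second BMP type 1 receptor, was at 3.54 ± 0.559 CPM in DS38 and 3.46 ± 0.403 CPM in DMSO (SD, n = 4 each). Acvr1c, a receptor for activins and Nodal, was the least expressed tested member per length, and its log2 difference of 0.70 had a wide 95% interval from 0.02 to 1.38 (edgeR adjusted p = 0.0965). It passed without DMSO replicate 3 (0.99, adjusted p = 0.0335), but was 0.49 without DS38 replicate 1 (adjusted p = 0.281) and 0.30 without both libraries numbered 1 (adjusted p = 0.531).

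**Figure D4:**
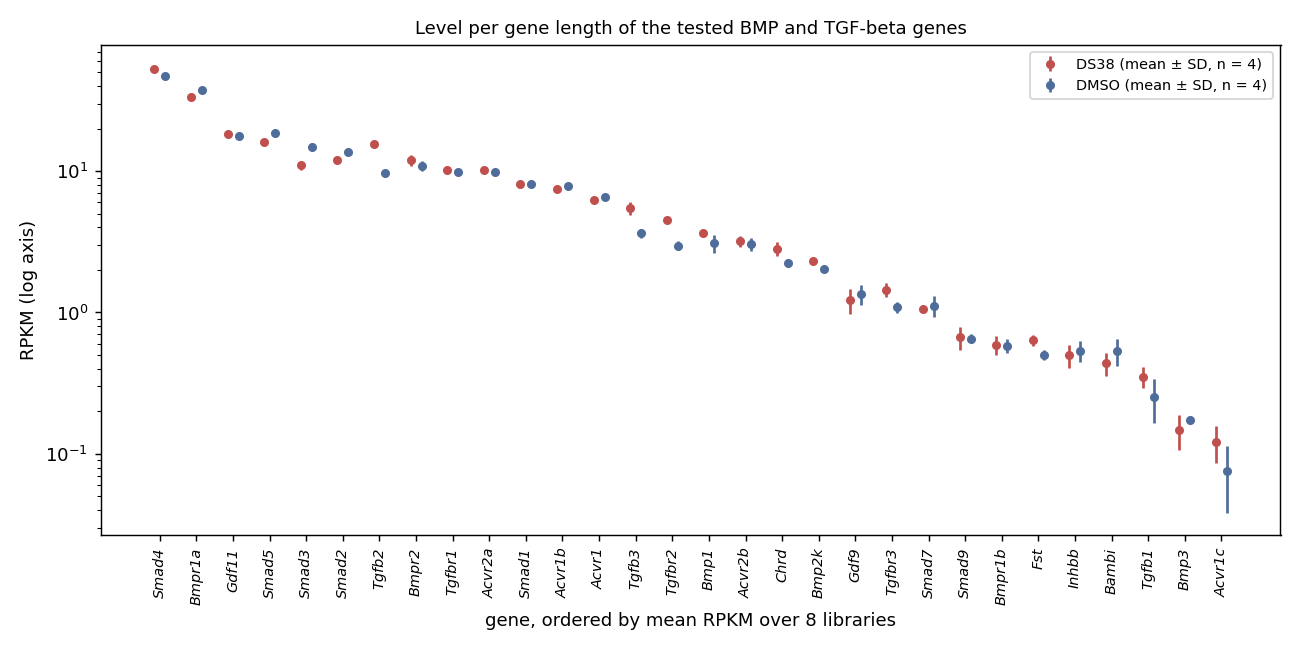
Mean RPKM with SD (n = 4 a group) of the 30 tested genes on a log axis, ordered by the mean over all libraries. Smad4 and Bmpr1a lead, and Tgfb2 and Smad3 exchange order, with Tgfb2 at 15.6 RPKM in DS38 and 9.64 RPKM in DMSO and Smad3 at 11.0 RPKM in DS38 and 14.9 RPKM in DMSO.

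The receptor-regulated Smad genes fell or did not pass, and the shared Smad4 rose slightly. Of the 5 receptor-regulated Smad genes, 3 fell and 2 missed the threshold. The share called lower was 60.0%, against 20.7% of all genes, with no test of the group. Smad3, a transcription factor of the TGF-beta branch, had 66.2, 61.3, 61.3 and 54.4 CPM in DS38 and 77.1, 81.6, 89.9 and 82.1 CPM in DMSO. No DS38 library reached the lowest DMSO library, and the fall was 1.36-fold (log2 fold change -0.44 ± 0.057 SE, edgeR adjusted p = 1.44e-05). Smad2, the other Smad of that branch, had 105, 113, 100.2 and 103 CPM in DS38 and 120.3, 119, 121 and 119 CPM in DMSO. Its groups did not overlap either, and its log2 fold change was -0.18 ± 0.042 SE (edgeR adjusted p = 0.00197). The mean log2 of Smad3 over Smad2 was -0.80 ± 0.130 in DS38 and -0.54 ± 0.088 in DMSO (SD, n = 4 each), with every DS38 library below every DMSO library. The 2-sided exact permutation p was again 0.0286, or 0.0572 adjusted over the 4 pairs. In the other pairs, Tgfb2 over Tgfb1 and Tgfb3 over Tgfb2, the groups overlapped, with exact permutation p-values of 0.514 and 0.143.

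In the BMP branch, Smad5 had 121, 125, 119.6 and 112 CPM in DS38 and 129, 134, 146 and 139 CPM in DMSO. Its groups did not overlap, and the log2 fold change was -0.20 ± 0.046 SE (edgeR adjusted p = 0.00229). Smad1 stood at 51.1 ± 1.53 CPM in DS38 and 51.1 ± 1.57 CPM in DMSO (SD, n = 4 each), with a 95% interval of the log2 difference from -0.09 to 0.09 (edgeR adjusted p = 0.997). Smad9, the least expressed of the 3, had a log2 difference of 0.06 with an interval from -0.26 to 0.37 (edgeR adjusted p = 0.799). Per length, the BMP-branch Smads summed to 24.9 ± 1.04 RPKM in DS38 and 27.3 ± 1.04 RPKM in DMSO. The corresponding sums for Smad2 and Smad3 were 23.0 ± 1.14 RPKM in DS38 and 28.6 ± 0.993 RPKM in DMSO (SD, n = 4 each). The TGF-beta branch thus held 47.9% ± 0.683 of receptor-regulated Smad RPKM in DS38 and 51.1% ± 0.244 in DMSO.

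Smad4 was the best expressed member per length, at 53.1 ± 1.46 RPKM in DS38 and 46.9 ± 1.80 RPKM in DMSO (SD, n = 4 each). In CPM it stood at 205, 193, 195 and 195 in DS38 and at 175, 165, 180.0 and 177 in DMSO. The groups were apart, with a log2 fold change of 0.18 ± 0.040 SE (edgeR adjusted p = 0.0017). The inhibitory Smads, which the pathway induces as feedback, were low. Smad7 was at 4.81 ± 0.260 CPM in DS38 and 5.04 ± 0.850 CPM in DMSO (SD, n = 4 each), a log2 difference of -0.07 with a 95% interval from -0.35 to 0.22 (edgeR adjusted p = 0.73). Smad6 had 16 counts in DS38 and 16 in DMSO.

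Of the 5 antagonist genes, 3 were tested and Chrd rose, a called share of 33.3% against 39.5% of all genes. Chrd, which encodes chordin, a secreted protein that binds BMPs and keeps them from their receptors, had 17.7, 15.5, 17.5 and 20.2 CPM in DS38 and 15, 14.6, 12.9 and 13.5 CPM in DMSO. The lowest DS38 library lay just above the highest DMSO library, and the log2 fold change was 0.33 ± 0.083 SE (edgeR adjusted p = 0.00425). Chrd shares 239 exon bases with Thpo on the opposite strand, which had 412 counts in all. Fst, or follistatin, which binds activins, had 3.14, 3.10, 2.82 and 2.60 CPM in DS38 and 2.05, 2.26, 2.39 and 2.50 CPM in DMSO. Its groups were apart, but its log2 difference of 0.36 (95% interval 0.03 to 0.68) did not pass (edgeR adjusted p = 0.0746). It did pass with library totals (0.42, adjusted p = 0.0391) and with the stricter filter (0.37, adjusted p = 0.0475). Bambi, a pseudoreceptor without a kinase that the pathway induces, had a log2 difference of -0.27 (95% interval -0.67 to 0.12, edgeR adjusted p = 0.269). Nog, which encodes the BMP antagonist noggin, was under the filter, with 6, 7, 5 and 6 counts in DS38 and 16, 12, 11 and 4 in DMSO. Its groups overlapped through DMSO replicate 4. Without the filter its log2 difference was -0.88 (edgeR adjusted p = 0.155), and in DESeq2 it was -0.87 (adjusted p = 0.233). With single DS38 libraries left out, edgeR's adjusted p ran from 0.0987 to 0.178. Of the fits that held Nog, it passed only without DMSO replicate 4 (-1.11, edgeR adjusted p = 0.0219). That fit dropped the library behind the overlap and kept Nog only through DMSO libraries, so this pass is no support for a fall.

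Bmp1 and Bmp2k carry the BMP name without being ligands. Bmp1 encodes a metalloproteinase that cleaves procollagen and chordin. It had 32.6, 33.1, 30.4 and 33.9 CPM in DS38 and 32.5, 26, 23.0 and 28.0 CPM in DMSO, where replicate 1 reached the DS38 range (log2 fold change 0.24 ± 0.083 SE, edgeR adjusted p = 0.0314). Bmp2k encodes a kinase first found as induced by BMP2. Its values were 20.1, 21.2, 19.4 and 18.2 CPM in DS38 and 16.7, 16.3, 17.6 and 18.5 CPM in DMSO, and its groups overlapped (log2 fold change 0.20 ± 0.069 SE, edgeR adjusted p = 0.0294). Neither passed after removal of the trend with gene length (adjusted p = 0.0714 for Bmp1 and 0.0551 for Bmp2k). Bmp1 also failed to pass without any 1 of DS38 replicates 1, 2 and 4 (0.0512, 0.0793 and 0.0687) or DMSO replicates 2, 3 and 4 (0.0908, 0.0819 and 0.0587). Bmp2k failed without DS38 replicate 1 (0.0586) or 2 (0.12) or DMSO replicate 1 (0.066) or 2 (0.0949), without the filter (0.0629) and in DESeq2 (0.0703). Bmp2k shares 1185 exon bases with Paqr3 on the opposite strand.

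The rest of the pathway was read from lists that hold 75 further genes, of which 48 were tested, with 15 higher, 10 lower and 23 short of the threshold. This is 52.1% called, against 39.5% of all genes, with a median log2 fold change of 0.10, against -0.01 over all genes. The lists were drawn up with earlier results of these data known.

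Of the 13 further extracellular antagonists that could be tested, 6 were higher, 1 was lower and 6 missed the threshold, with a median log2 fold change of 0.16. The share called higher was 46.2%, against 18.8% of all genes, and the share called lower 7.69%, against 20.7%, with no test of the list. Crim1, a membrane protein that binds BMPs, had 34.8, 34.0, 30.0 and 31.4 CPM in DS38 and 23.9, 21.9, 21.0 and 22.7 CPM in DMSO, with no overlap (log2 fold change 0.54, edgeR adjusted p = 2.17e-06). Fstl1, a secreted follistatin-like glycoprotein, rose by 0.30 on the log2 scale, Htra1, a secreted protease that acts on TGF-beta family signals, by 0.36, and Nbl1, a DAN-family antagonist, by 0.29. The groups of Htra1 overlapped, and those of Fstl1 and Nbl1 did not. The 1 fall was that of Sost, the gene of sclerostin, which is chiefly an inhibitor of Wnt signals, at 0.292 ± 0.120 CPM in DS38 and 0.803 ± 0.356 CPM in DMSO (SD, n = 4 each, edgeR adjusted p = 0.00965). Sost had 7, 6, 8 and 4 counts in DS38 and 7, 25, 17 and 18 in DMSO, and its groups overlapped through DMSO replicate 1.

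Of 9 genes for latency and processing of the ligands, 3 were higher and 1 lower, and the called share of 44.4% was near the 39.5% of all genes. Itgav, an integrin subunit that releases TGF-beta from its latent complex, rose by 0.34 in log2 (adjusted p = 4.19e-05 in edgeR). Ltbp3 (0.27), which encodes a latent TGF-beta binding protein, and Pcsk5 (0.29), a proprotein convertase gene, rose as well, whereas Ltbp4, a relative of Ltbp3, fell (-0.32). All 3 tested co-receptor genes changed, against 39.5% of all genes. The BMP co-receptor genes Rgma and Rgmb fell (log2 fold changes -0.42 and -0.29, edgeR adjusted p = 8.60e-07 and 2.65e-05), and Neo1, which encodes neogenin, the receptor of these proteins, rose (0.22, edgeR adjusted p = 0.0014). Rgma had 145, 137, 126 and 142 CPM in DS38 and 187, 184, 189.5 and 175 CPM in DMSO, and the groups did not overlap.

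Among 17 intracellular regulators, 2 were called higher, 5 lower and 10 neither, and the called share of 41.2% was near the 39.5% of all genes. Zfyve9, which encodes the anchor that brings Smad2 and Smad3 to the receptor, fell (log2 fold change -0.41, edgeR adjusted p = 5.94e-06), as did the phosphatase gene Ppm1a (-0.37) and Tab1 (-0.29), a partner of the kinase Tak1. Nedd4l, a ubiquitin ligase gene whose product acts on Smad2 and Smad3, rose by 0.37 in log2 (adjusted p = 3.91e-07 in edgeR).

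**Figure D5:**
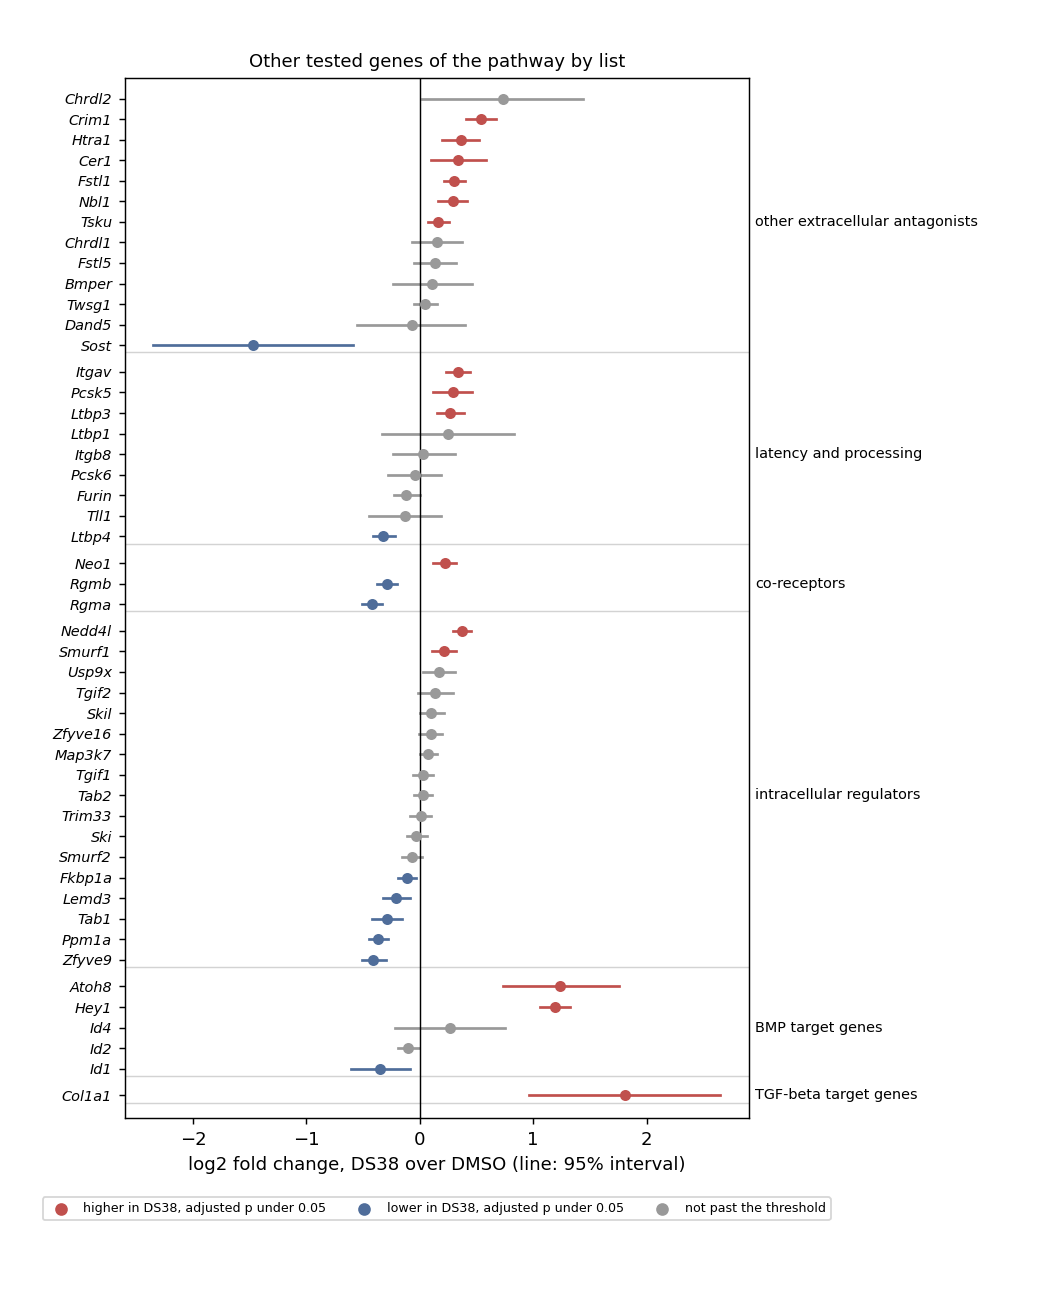
Log2 fold change of DS38 over DMSO with 95% intervals for the other tested genes of the pathway by list (4 libraries a group; Skil is drawn among the regulators only). Hey1, Atoh8 and Col1a1 lie above 1, and Sost lies below -1.

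Known target genes of the pathway did not move one way. Among 7 BMP targets with enough counts, 2 rose, 1 fell and 4 missed the threshold, a called share of 42.9% against 39.5% of all genes. Hey1, a repressor gene that BMPs can induce and that also answers to Notch, had 105, 95.1, 95.9 and 102 CPM in DS38 and 49.6, 40.1, 43.6 and 41.2 CPM in DMSO. The DS38 libraries lay far above the DMSO ones (log2 fold change 1.19 ± 0.060 SE, edgeR adjusted p = 1.82e-10). Atoh8, a transcription factor gene induced by BMPs in liver and endothelium, rose at a low level, with 1.38, 1.58, 1.27 and 1.72 CPM in DS38 and 0.602, 0.739, 0.761 and 0.408 CPM in DMSO (log2 fold change 1.24, edgeR adjusted p = 0.000601). Id1, the most used readout of BMP signals, had 4.19, 4.71, 4.32 and 4.01 CPM in DS38 and 5.90, 6.17, 4.95 and 4.95 CPM in DMSO, with no overlap. It fell by 0.35 in log2 (adjusted p = 0.0293 in edgeR), but did not pass when any 1 of DS38 replicates 1, 3 and 4 (adjusted p of 0.0618, 0.0575 and 0.0714) or DMSO replicates 1 and 2 (0.0769 and 0.106) was left out. Nor did it pass in DESeq2 (0.0633), with library totals (0.0669) or with the length trend removed (0.126). Id2 was the best expressed Id gene, at 76.9 ± 3.34 CPM in DS38 and 82.3 ± 1.79 CPM in DMSO (SD, n = 4 each, edgeR adjusted p = 0.064), while Id3 had 3 counts in each group. Smad7 and Bambi, described above, are targets too and did not pass.

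Of 11 TGF-beta targets, 8 were under the filter, among them Ccn2 with 7 counts in DS38 and 2 in DMSO, and Tgfbi with 1 count in DS38 and 0 in DMSO. Per plain library total, 3.61% of genes under the filter had every DS38 library above every DMSO library, and 0.551% had every one below. Those above included Cdkn2b, a cell cycle inhibitor gene (29 counts in DS38 and 10 in DMSO), and Acta2, a smooth muscle actin gene (11 counts in DS38 and 1 in DMSO). Neither passed in edgeR without the filter (adjusted p = 0.0676 for Cdkn2b and 0.0628 for Acta2). Of the 3 tested, only Col1a1, a fibrillar collagen gene, rose, a called share of 33.3% against 39.5% of all genes. Col1a1 had 13, 27, 19 and 12 counts in DS38 and 4, 2, 6 and 7 in DMSO. It passed the filter's minimum of 10 counts only through the DS38 libraries. The filter thus favoured a rise, and nothing is drawn from this share. Col1a1 was at 0.798 ± 0.258 CPM in DS38 and 0.233 ± 0.130 CPM in DMSO (SD, n = 4 each; log2 fold change 1.81, edgeR adjusted p = 0.0016). Skil, a Smad co-repressor gene, had a log2 difference of 0.10 (95% interval 0.00 to 0.21, edgeR adjusted p = 0.0935), and Smad7 is given above. Col1a1 is also 1 of 7 mesenchymal markers. Per plain library total, these summed to 54.1 to 58.4 CPM in DS38 and 72.3 to 77.4 CPM in DMSO. Most of it came from Pdgfra (with TMM, 51.1 ± 1.52 CPM in DS38 and 73.3 ± 1.87 CPM in DMSO). Col1a2, Dcn and Pdgfrb had 8 counts or fewer each over all libraries. The other tested mesenchymal markers, Col3a1 and Lum, had log2 differences of 0.41 (95% interval 0.04 to 0.78, edgeR adjusted p = 0.0732) and 0.70 (0.07 to 1.33, edgeR adjusted p = 0.0719). The part of mesenchymal RNA in the Col1a1 rise was not tested. Per plain library total, the 4 astrocyte markers summed to 113 to 116 CPM in DS38 and 116 to 119.6 CPM in DMSO, of which 1 rose and 1 fell. Nearly all of that sum was Slc1a3, which fell (with TMM, 109 ± 1.60 CPM in DS38 and 119 ± 1.71 CPM in DMSO; SD, n = 4 each; edgeR adjusted p = 0.00831). Gfap rose 1.68-fold with its groups apart (3.07 ± 0.223 CPM in DS38 and 1.83 ± 0.521 CPM in DMSO; SD, n = 4 each; edgeR adjusted p = 0.00421). The summed level of 5 oligodendrocyte lineage markers, per plain library total, was 14.3 to 16.5 CPM in DS38 and 13.8 to 16.1 CPM in DMSO.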

How the data were processed

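Polyadenylated RNA of MB21 cells was sequenced in 4 DS38 and 4 DMSO libraries, and the authors deposited raw read counts per gene with a gene length. Per the submitters' processing notes, the tools included featureCounts, Subread 2.0.3 and STAR 2.7.9a, with GRCm39 given as a build beside GRCh38.p13. How strand was set, and which annotation was used, is not stated in the sources at hand. Symbols came from a table that matched 52083 of 55416 identifiers.

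Genes were kept by edgeR's filterByExpr (minimum 10 counts) and tested in R 4.3.3 with edgeR 4.0.16 (TMM factors, robust quasi-likelihood F test, Benjamini-Hochberg adjustment over 15133 genes, threshold 0.05). The same code was tested on simulated data with known changes. Standard errors are the log2 fold change over the root of F. Genes under the filter are given as counts or per plain library total, and sums over marker lists per plain library total. Alternatives were other scaling, filters of none and 50 counts in 4 libraries, a replicate block, removal of the length trend, limma 3.58.1, DESeq2 1.42.0 and leaving out libraries. Exon overlaps were read from the GRCm38 annotation. Members were matched by symbol alone, but the symbol rule, the lists and the pairs were set with earlier results of these data known. By the rule for named genes, values in every library are given for members past the threshold, the best expressed member of each role and members under the filter whose groups do not overlap, and up to 4 tested genes with the smallest p are named per list. Other genes were named after their values were seen.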

Additional observations from a re-analysis of the deposited data

Results flagged for a closer look

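Dixon's gap test was applied to the 4 libraries of each group for the 30 tested members, 60 groups in all, and chance flags about 1 in 20 such groups. Smad4 in DS38 replicate 1 stood at 205 CPM, apart from the other DS38 libraries at 193 to 195 CPM (gap over range 0.891, past the 95% critical value). Bmpr1b in DS38 replicate 3 stood at 2.71 CPM, apart from the others at 3.69 to 3.89 CPM (0.832, also past it).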

How the results depend on the processing

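Over all alternatives run, 9 of the 12 called members kept their call, the exceptions being Bmp1, Bmp2k and Bmpr1a. The count of members that rose or fell was 8 and 4, against 10 and 3 with library totals, 10 and 5 without the filter, 6 and 4 with the length trend removed and 7 and 5 in DESeq2. Rises made up 66.7% of changed members with TMM and 76.9% with library totals, against 47.5% and 64.3% of all changed genes. With library totals the median log2 fold change of all tested genes was 0.05. Only members that were not called on either side changed sign. Bmpr1b reached -0.04 without both libraries numbered 1 and ran from -0.00 to 0.15 with single libraries left out. Smad1 was at -0.01 without the filter, -0.02 with the length trend removed and -0.00 in DESeq2, and ran from -0.02 to 0.02 with single libraries left out. The same ranges were -0.19 to 0.01 for Smad7, -0.24 to 0.02 for Inhbb and -0.08 to 0.14 for Smad9. The cause was not tested. Among same-numbered libraries, the deviations of those numbered 1 correlated at 0.331, and those of the other pairs at -0.0699, 0.067 and -0.0816. Of the DS38 libraries only replicate 1 correlated best with its own number. With the replicate block, 7 members rose and 4 fell, all 11 among the 12, and the call lost was Bmp2k (adjusted p = 0.0621 in edgeR). Genes with few counts, most BMP ligands and TGF-beta targets among them, limit what these depths can show.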
